A study of Mus musculus with 8 samples.

Results

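The CXC, CX3C and XC chemokine receptors were followed across naive CD4 T cells and effector Th1, Th2 and Th17 cells. The members were the 8 genes *Cxcr1*, *Cxcr2*, *Cxcr3*, *Cxcr4*, *Cxcr5*, *Cxcr6*, *Cx3cr1* and *Xcr1*, chosen by symbol from the 23284 genes listed. Each had a single row in every library, and the authors' estimation status was OK for all 8 in all 8 libraries. The unit throughout was FPKM, the sequenced fragments of a gene corrected for the length of its exons and for the size of the library, so that levels could be compared between genes. There were 4 groups with 2 libraries each, and DO11.10 Tg mice, which carry a transgenic TCR for an OVA peptide, were the source of all cells. Naive cells were sorted from spleen as CD44low CD62Lhigh CD4 T cells. The effector subsets were cultured for 6 days with OVA peptide and irradiated splenocytes from which T cells had been removed. IL-2 (30 U/ml) was present in the Th1 and Th2 cultures. The former also held IL-12 (100 U/ml) with an antibody against IL-4 (1 μg/ml), and the latter IL-4 (100 U/ml) with an antibody against IFNγ (10 μg/ml). In Th17 cultures the cytokines were IL-6, IL-1β and IL-23 (10 ng/ml each), and both antibodies were added (10 μg/ml each). Per the methods, the effector cultures were started from sorted naive cells. The naive and effector cells therefore differed both in stimulation and in culture.

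Chemokine receptors are seven-transmembrane proteins that couple to inhibitory G proteins and steer cells along gradients of small secreted ligands. Receptors are named after the cysteine pattern of the ligands they bind. CXCR4 and CXCR5 are known for positioning lymphocytes in lymphoid organs, CXCR3 and CXCR6 for the entry of effector T cells into tissue, and CXCR1 and CXCR2 for the migration of neutrophils. CX3CR1 is a marker of monocytes and of cytotoxic lymphocytes, and XCR1 is a marker of cross-presenting dendritic cells.

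T cell genes and lineage markers followed the labels. *Cd3e* lay between 196 and 351 FPKM and *Cd4* between 187 and 373 FPKM in the 8 libraries. The summed FPKM of *Tbx21*, *Ifng* and *Il12rb2* was 898 to 1040 in Th1 and 0.987 to 132 elsewhere, that of *Gata3*, *Il4*, *Il5* and *Il13* was 384 to 417 in Th2 and 6.75 to 26.4 elsewhere, and that of *Il17a*, *Il17f* and *Il23r* was 1355 to 1378 in Th17 and 0.135 to 2.68 elsewhere. The confidence intervals deposited with the values implied 14463538 to 21058108 fragments per library, with the naive libraries the shallowest. Nothing in the labels says that libraries of a group came from separate animals or cultures, so the p-values measure the spread between libraries, which may be technical. In bulk RNA, fewer cells that express a receptor and less of its RNA in each cell cannot be told apart.

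The receptor set of naive cells was almost entirely *Cxcr4*, whereas that of Th1 cells was mostly *Cxcr1*, *Cxcr6* and *Cxcr2*. The FPKM of the 8 receptors summed to 94.4 and 85.7 for naive cells, to 413 and 421 for Th1, to 82.1 and 83.1 for Th2, and to 116 and 123 for Th17. *Cxcr4* made up 95.3% and 92.0% of this sum in naive cells and 8.38% and 8.03% in Th1. *Cxcr1* made up 1.56% and 1.89% in naive cells and 47.9% in both Th1 libraries. In Th2 and Th17, *Cxcr4* was again the most abundant of the 8, with 49.3% and 52.0% of the sum in Th2 and 53.9% and 55.4% in Th17.

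**Figure D1:**
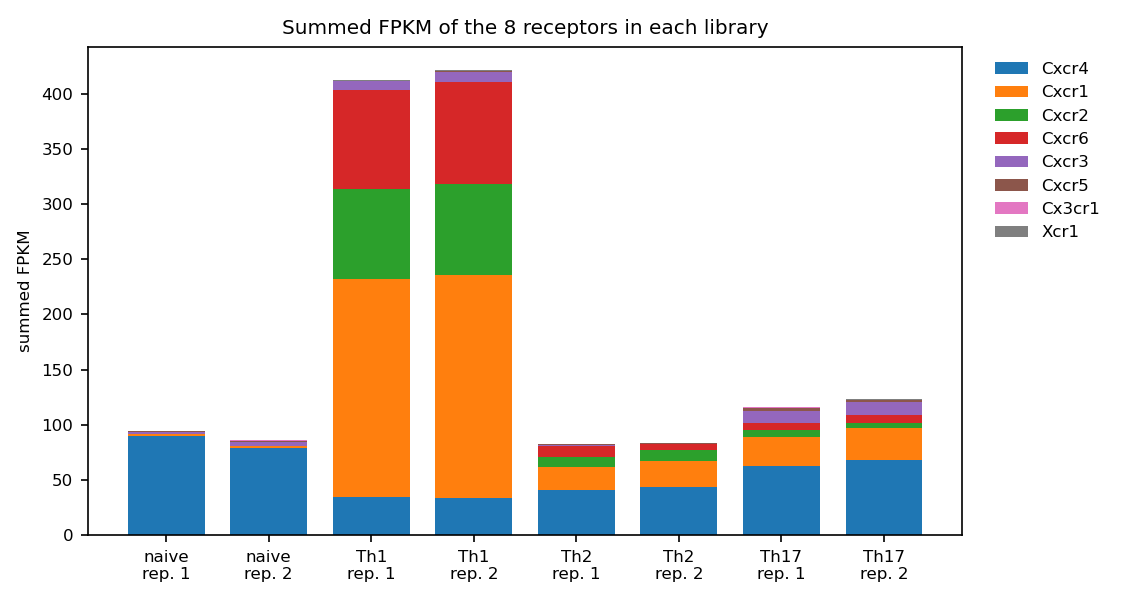
Summed FPKM (linear axis, starting at 0) of the 8 receptors in each of the 8 libraries, with 1 stacked bar per library and 1 colour per receptor. The Th1 bars reach 413 and 421 and are mostly *Cxcr1*, *Cxcr6* and *Cxcr2*, and the naive bars reach 94.4 and 85.7 and are almost all *Cxcr4*.

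A mean of at least 1 FPKM over the 8 libraries was reached by 6 of the 8 receptors, which were tested with limma on log2(FPKM + 1) among 11198 genes. *Cx3cr1* and *Xcr1* stayed under it and are described by their values. *Cxcr5* reached it only with its Th17 values, so its calls in Th17 are not independent of this filter. Of the 6 tested, 5 changed between Th1 and naive cells, beside 67.3% of all genes tested. They were 4 that rose, beside 33.8% of all genes, and 1 that fell, beside 33.5%. Between Th2 and naive cells 5 changed, beside 70.5% of all genes, with 3 upwards (all genes 31.8%) and 2 downwards (38.7%). Between Th17 and naive cells all 6 tested changed, beside 67.3%, with 5 upwards (37.5%) and 1 downwards (29.8%). Between the effector subsets, 4 of the 6 differed between Th1 and Th2, beside 44.3% of all genes, all 4 being higher in Th1 (27.4%) and none lower (16.9%). For Th17 against Th2 the count was 5, beside 43.6%, with 4 higher in Th17 (31.7%) and 1 lower (12.0%). For Th1 against Th17 it was 5, beside 25.1%, with 3 higher in Th1 (9.17%) and 2 lower (16.0%). The counts upwards against naive cells lie above the share of all genes, but with only 6 genes these counts say nothing particular of the receptors. The median log2 difference of the 6 receptors was 3.75 for Th1, 1.11 for Th2 and 2.12 for Th17 against naive cells, where the median of all genes tested was -0.01, -0.11 and 0.08. It was 2.98 for Th1 against Th2, 0.46 for Th17 against Th2 and 1.23 for Th1 against Th17, where the median of all genes was 0.11, 0.18 and -0.08.

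**Figure D2:**
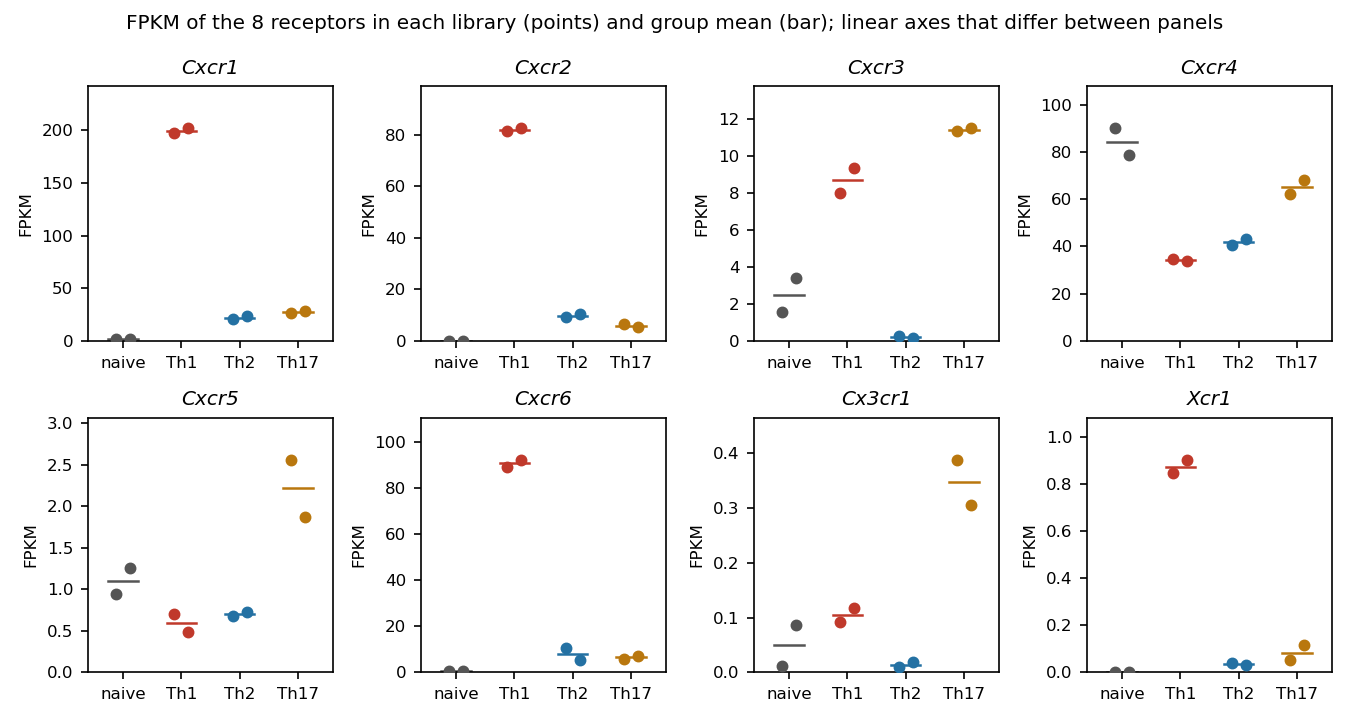
FPKM of each receptor (vertical linear axes, which differ between panels and start at 0) in the 4 groups, with 1 point per library and a bar at the mean of the 2 libraries. *Cxcr1*, *Cxcr2*, *Cxcr6* and *Xcr1* are highest in both Th1 libraries, *Cxcr4* in both naive libraries, and *Cxcr3*, *Cxcr5* and *Cx3cr1* in both Th17 libraries, although Th1 and Th17 did not pass the test of their difference for *Cxcr3*.

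*Cxcr1* and *Cxcr2*, which encode the receptors for the neutrophil-attracting CXC chemokines, were higher in all effector subsets than in naive cells and by far highest in Th1. *Cxcr1* was 1.47 and 1.62 FPKM in naive, 198 and 202 in Th1, 26.5 and 28.5 in Th17, and 21.0 and 23.5 in Th2. Every effector library lay above both naive libraries, and both Th1 libraries lay above all others. The group means were 1.55 ± 0.106 FPKM in naive, 199.8 ± 2.83 in Th1, 27.5 ± 1.46 in Th17 and 22.2 ± 1.75 in Th2 (SD, n = 2). The Th1 mean was 129 times the naive mean, 8.98 times the Th2 mean and 7.26 times the Th17 mean. On the log2(FPKM + 1) scale, which understates the change of low genes, the difference from naive cells came to 6.30 for Th1, 3.19 for Th2 and 3.48 for Th17 (SE 0.09, limma adjusted p = 9.317e-08, 3.946e-07 and 3.051e-07). Th1 exceeded Th2 by 3.11 and Th17 by 2.82 (limma adjusted p = 2.623e-06 and 6.605e-06). The order of Th17 above Th2 rested on a small difference of 0.30 (limma adjusted p = 0.04121). This call was lost in 12 of the 18 alternatives, including the removal of any 1 library, and the difference was 0.12 (adjusted p = 0.3291) with the libraries scaled to equal medians, so Th2 and Th17 are not ordered here.

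*Cxcr2* was listed at 0 in both naive libraries. It was 81.2 and 82.4 FPKM in Th1, 6.56 and 5.31 in Th17, and 9.16 and 10.2 in Th2. No fold against naive cells is given, since the naive value is a listed 0. The means were 81.8 ± 0.797 FPKM in Th1, 5.94 ± 0.887 in Th17 and 9.70 ± 0.764 in Th2 (SD, n = 2), and the Th1 mean was 8.43 times that of Th2 and 13.8 times that of Th17. Differences in log2(FPKM + 1) from naive cells were 6.37 in Th1, 3.42 in Th2 and 2.79 in Th17 (SE 0.11, limma adjusted p = 1.1e-07, 5.52e-07 and 1.368e-06). Th1 exceeded Th2 by 2.95 and Th17 by 3.58 (limma adjusted p = 5.56e-06 and 5.124e-06). *Cxcr2* was lower in Th17 than in Th2, by a log2 difference of -0.63 (limma adjusted p = 0.004803), and this held in all 18 alternatives (adjusted p 0.002456 to 0.03603). The ratio of *Cxcr1* to *Cxcr2* FPKM was 2.44 and 2.45 in Th1, 2.29 in both Th2 libraries, and 4.03 and 5.37 in Th17. This ratio was not tested.

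*Cxcr2* and *Cxcr1* lie side by side on mouse chromosome 1 in opposite orientation. In the deposited mm10 coordinates, *Cxcr2* spans chr1:74153994-74161246 on the + strand and *Cxcr1* spans chr1:74191786-74194631 on the - strand, 30539 bases apart. No stretch of 50 exon bases of *Cxcr1* recurred in another GENCODE gene. Of the 50-base stretches of *Cxcr2*, 6.68% recurred elsewhere, and Gm26764 was the gene that shared the most.

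Of the other genes within 100000 bases of this pair, *Tns1* and *Rufy4* were also highest in Th1 and lowest in naive cells. *Tns1*, which encodes the focal adhesion protein tensin 1, was 0.992 and 1.49 FPKM in naive, 12.0 and 15.4 in Th1, 4.63 and 5.71 in Th17, and 4.24 and 5.41 in Th2. *Rufy4*, which encodes a RUN and FYVE domain protein, was 0.145 and 0.230 FPKM in naive, 19.0 and 21.4 in Th1, 3.50 and 3.53 in Th17, and 3.07 and 3.46 in Th2. Both were higher in every effector library than in naive libraries and highest in Th1. Against naive cells *Tns1* rose by 2.72, 1.38 and 1.46 and *Rufy4* by 4.16, 1.84 and 1.93 on the log2(FPKM + 1) scale in Th1, Th2 and Th17 (SE 0.18 and 0.10, limma adjusted p at most 0.000426). Th1 exceeded Th2 by 1.34 for *Tns1* and 2.31 for *Rufy4*, and Th17 by 1.25 and 2.23 (limma adjusted p at most 0.002947). *Tmbim1* rose in all 3 effector subsets too, but was highest in Th17, at 12.1 ± 0.336 FPKM against 9.62 ± 0.692 in Th1, 6.81 ± 0.286 in Th2 and 0.405 ± 0.0163 in naive (SD, n = 2). *Arpc2*, a subunit of the actin-nucleating Arp2/3 complex, was higher than in naive cells in all 3 subsets by 0.52 to 0.92 and passed no test between subsets. *Aamp* rose only in the Th2 comparison with naive cells, by 0.48 (limma adjusted p = 0.02292), *Pnkd* fell by 0.46 in that comparison (limma adjusted p = 0.02048), and *Gpbar1* was listed at 0 in all libraries. The neighbourhood was thus not uniform.

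**Figure D3:**
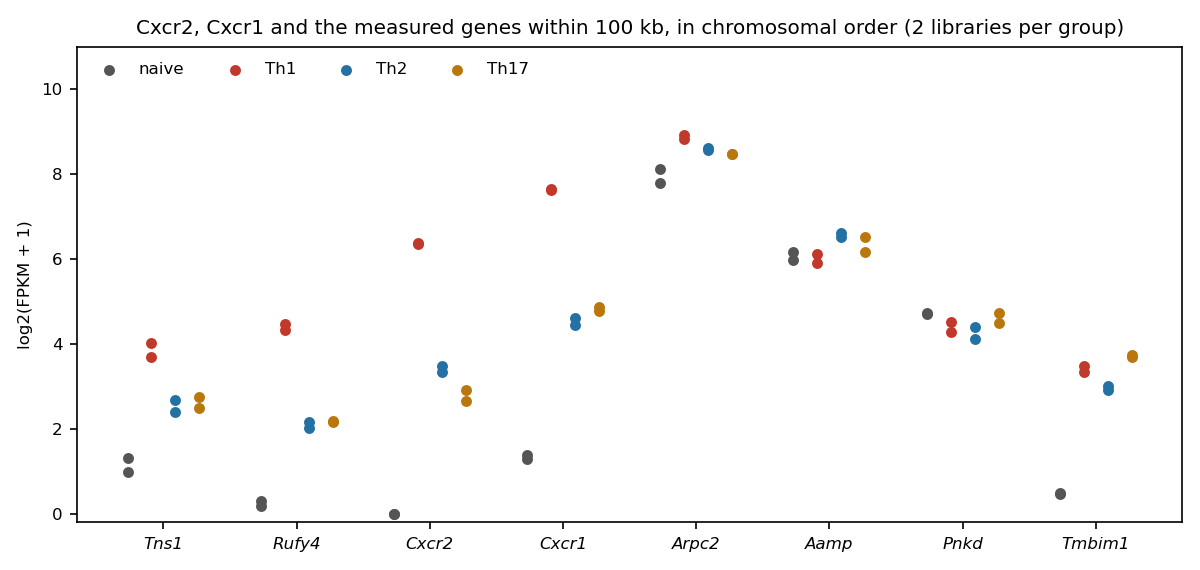
Levels as log2(FPKM + 1) of *Cxcr2*, *Cxcr1* and 6 measured genes within 100000 bases of them, placed in their order along chromosome 1 with even spacing, and coloured by group with 1 point per library. *Tns1*, *Rufy4*, *Cxcr2* and *Cxcr1* are lowest in naive and highest in Th1, *Tmbim1* is highest in Th17, and *Aamp* and *Pnkd* vary little (*Gpbar1*, listed at 0, is not drawn).

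Neutrophil and myeloid precursor genes were read beside *Cxcr1* and *Cxcr2*, since neutrophils are the cells best known for both receptors. Of the 11 genes listed, 10 were measured. Their summed FPKM was 0.610 to 1.69 in naive, 0.566 to 8.87 in Th1, 0.992 to 9.54 in Th2 and 0.808 to 8.85 in Th17, with the higher value in replicate 1 of each effector subset, mostly from *Mpo* and *Elane*. *S100a9* and *Camp*, abundant transcripts of neutrophils and their precursors, were listed at 0 in all 6 effector libraries, and *Csf3r*, the receptor for the granulocyte growth factor, was at most 0.156 FPKM there. *S100a8* was above 0 in 5 of these 6 libraries, at up to 0.663 FPKM, and *Prtn3* in all 6, at 0.162 to 2.31 FPKM. The part of such cells in the levels of *Cxcr1* and *Cxcr2* was not tested.

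*Cxcr6*, which encodes the receptor for the membrane-bound chemokine CXCL16 on tissue-resident and effector T cells, was likewise highest in Th1 and lowest in naive cells. It was 0.413 and 0.520 FPKM in naive, 89.5 and 92.4 in Th1, 5.97 and 7.14 in Th17, and 10.4 and 5.23 in Th2. Both Th1 libraries stood above all others, while the range of Th2 enclosed that of Th17. The means were 0.467 ± 0.0750 FPKM in naive, 90.9 ± 2.06 in Th1, 6.55 ± 0.827 in Th17 and 7.84 ± 3.69 in Th2 (SD, n = 2), and the Th1 mean was 195 times that of naive, 11.6 times that of Th2 and 13.9 times that of Th17. In log2(FPKM + 1) the difference from naive cells came to 5.97 for Th1, 2.53 for Th2 and 2.36 for Th17 (SE 0.26, limma adjusted p = 2.202e-06, 0.0001193 and 0.0001812). Th1 exceeded Th2 by 3.44 and Th17 by 3.61 (limma adjusted p = 9.24e-05 and 0.0001297). Between Th17 and Th2 the difference was -0.17 (95% confidence interval -0.78 to 0.45, limma adjusted p = 0.6342). Its direction hung on 1 library: it was 0.27 without Th2 replicate 1 (adjusted p = 0.1609) and -0.60 without Th2 replicate 2 (adjusted p = 0.02657). *Cxcr6* (mm10 chr9:123806477-123811754, + strand) lies within the span of *Fyco1*, a gene of the opposite strand, without shared exon bases. *Fyco1* was 7.09 to 12.7 FPKM in all libraries and fell in all 3 effector subsets (log2 differences -0.34, -0.58 and -0.42, limma adjusted p = 0.04283, 0.00429 and 0.01966), opposite to *Cxcr6*. Genes of natural killer cells, which also carry this receptor, had their highest summed FPKM in Th1 (17.0 and 23.7, beside 0.177 to 9.39 in the other groups), mostly from *Klrd1*. *Klrb1c* (0.625 and 0.302 FPKM) and *Eomes* (0.819 and 1.07 FPKM) also had their highest mean in Th1, and *Ncr1* was listed at 0 in all 6 effector libraries. The part of such cells in the level of *Cxcr6* was not tested.

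*Xcr1*, the gene of the receptor for XCL1, lies 40560 bases beyond *Cxcr6*, at mm10 chr9:123852315-123862029 on the - strand. It was also highest in Th1 and lowest in naive, in a low range, with 0.844 and 0.902 FPKM in Th1, 0.0400 and 0.0313 in Th2, 0.0511 and 0.117 in Th17, and 0.00205 and 0 in naive. The deposited intervals implied 110 and 112 fragments in Th1 and 0 to 12 in any other library. Tested with no filter on low values, *Xcr1* was higher in Th1 than in naive, Th2 and Th17 cells by 0.90, 0.85 and 0.79 in log2(FPKM + 1) (limma adjusted p = 1.468e-05, 5.338e-05 and 0.0001149). Naive cells were at or near 0 fragments, so no fold against them is given. Of 5 dendritic cell genes, the summed FPKM was 0.335 to 0.516 in Th1 and 0.726 to 3.85 in the other groups. *Itgax* made up most of this sum in naive and Th2 libraries but not in Th1 and Th17. *Clec9a* was at most 0.0453 FPKM in any library. *Zbtb46* and *Flt3* were not lowest in Th1, with *Zbtb46* at 0.165 and 0.126 FPKM beside 0.0552 and 0.0370 in naive, and *Flt3* at 0.198 and 0.0892 FPKM beside 0.114 and 0.0890 in naive. Their part in the level of *Xcr1* was not tested. *Ccr9*, a gut-homing receptor gene of this locus, moved the other way, with 9.27 and 8.81 FPKM in naive and at most 0.0473 FPKM in the effector libraries, with log2 differences of -3.28, -3.30 and -3.28 in Th1, Th2 and Th17 (limma adjusted p at most 5.577e-07). It reached a mean of 1 FPKM only with its naive values, so these tests are not independent of that filter.

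The 5′ flanks of the 3 receptors that rose together, *Cxcr1*, *Cxcr2* and *Cxcr6*, are shown beside that of *Cxcr4*, which was highest in naive cells. Each is the 250 bases before the gene's start in RefSeq for GRCm38.p6, the mm10 build, written 5′ to 3′ on the gene's strand, with CpG dinucleotides in capitals. They lie at chr1:74194632-74194881 (- strand), chr1:74153744-74153993 (+ strand), chr9:123806227-123806476 (+ strand) and chr1:128592300-128592549 (- strand).
Cxcr1: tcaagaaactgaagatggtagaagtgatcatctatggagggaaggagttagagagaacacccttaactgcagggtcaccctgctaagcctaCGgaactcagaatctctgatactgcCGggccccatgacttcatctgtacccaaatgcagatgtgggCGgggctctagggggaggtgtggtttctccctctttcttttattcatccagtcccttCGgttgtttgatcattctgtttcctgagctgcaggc
Cxcr2: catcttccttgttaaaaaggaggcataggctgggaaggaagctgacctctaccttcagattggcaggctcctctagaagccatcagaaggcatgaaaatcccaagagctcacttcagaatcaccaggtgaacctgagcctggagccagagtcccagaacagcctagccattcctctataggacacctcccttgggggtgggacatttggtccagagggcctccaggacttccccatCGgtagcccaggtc
Cxcr6: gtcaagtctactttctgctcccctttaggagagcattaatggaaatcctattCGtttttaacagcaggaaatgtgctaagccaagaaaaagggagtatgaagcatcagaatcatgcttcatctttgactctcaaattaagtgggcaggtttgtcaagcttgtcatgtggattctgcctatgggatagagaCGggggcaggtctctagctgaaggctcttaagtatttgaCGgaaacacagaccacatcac
Cxcr4: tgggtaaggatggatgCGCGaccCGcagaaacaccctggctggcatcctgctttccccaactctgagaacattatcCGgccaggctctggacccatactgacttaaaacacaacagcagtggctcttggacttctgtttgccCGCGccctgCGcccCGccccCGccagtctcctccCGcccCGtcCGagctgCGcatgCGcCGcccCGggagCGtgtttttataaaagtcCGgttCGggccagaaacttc
The flank of *Cxcr4* held 19 CpG, a number reached or passed by 19.7% of the 32851 promoters of this length. Those of *Cxcr1*, *Cxcr2* and *Cxcr6* held 4, 1 and 3 CpG, where the median of all promoters was 6 and 44.4%, 18.8% and 37.8% of promoters held as few or fewer. Among the 7 receptors with an entry, *Cxcr3*, *Cx3cr1* and *Xcr1* held 3, 4 and 5 CpG. Their GC content was 61.2% for *Cxcr4* and 38.8% to 54.4% for the other 6, where the median of all promoters was 52.4%. Motifs of lineage factors were searched on both strands. A T-box motif (AGGTGTGA) and a GATA motif (AGATAA) were found in none of the 7 flanks, and in 1.12% and 9.99% of all promoters. An E-box (CACGTG) was found in that of *Xcr1* alone, at -227 to -222, and in 6.02% of all promoters. The letters say nothing of whether a factor binds there.

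*Cxcr3*, the receptor gene for the interferon-induced chemokines CXCL9, CXCL10 and CXCL11 and a classic Th1 marker, was high in Th1 and in Th17 and nearly absent in Th2. It was 1.55 and 3.41 FPKM in naive, 8.01 and 9.35 in Th1, 11.3 and 11.5 in Th17, and 0.256 and 0.142 in Th2. The 4 groups did not overlap, Th17 lying above Th1, naive and Th2 in this order, although Th1 and Th17 did not pass the test of their difference. The means were 2.48 ± 1.31 FPKM in naive, 8.68 ± 0.946 in Th1, 11.4 ± 0.101 in Th17 and 0.199 ± 0.0811 in Th2 (SD, n = 2). The Th1 mean was 43.6 times and the Th17 mean 57.3 times the Th2 mean, which rested on 11 and 6 implied fragments. *Cxcr3* differed from naive cells by 1.53 in Th1, 1.89 in Th17 and -1.49 in Th2 in log2(FPKM + 1) (SE 0.24, limma adjusted p = 0.001104, 0.0003686 and 0.001139). It was higher in Th1 than in Th2 by 3.01 and in Th17 than in Th2 by 3.37 (limma adjusted p = 0.0001146 and 0.0001138). Th1 and Th17 differed by -0.36 (95% confidence interval -0.93 to 0.20, limma adjusted p = 0.3308). *Cxcr3* (mm10 chrX:101731536-101734147, - strand) shared no 50-base stretch with another gene. T-bet, the product of *Tbx21*, is a known activator of *Cxcr3*. *Tbx21* was 45.1 and 50.7 FPKM in Th1, 1.62 and 1.66 in Th17, 1.07 and 0.778 in Th2, and 0.260 and 0.486 in naive. Between Th1 and Th17 its log2 difference was 4.21 (limma adjusted p = 5.124e-06). *Tbx21* reached a mean of 1 FPKM only with its Th1 values, so this test is not independent of that filter. The part of *Tbx21* in the level of *Cxcr3* was not tested.

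*Cxcr4*, the receptor gene for CXCL12, which retains lymphocytes in bone marrow and lymphoid tissue, was the 1 receptor of the 6 tested that fell in all 3 effector subsets. It was 90.0 and 78.8 FPKM in naive, 34.6 and 33.8 in Th1, 62.3 and 68.1 in Th17, and 40.5 and 43.3 in Th2. No group overlapped another, and naive was highest. The means were 84.4 ± 7.86 FPKM in naive, 34.2 ± 0.538 in Th1, 65.2 ± 4.08 in Th17 and 41.9 ± 1.95 in Th2 (SD, n = 2), so the naive mean was 2.47 times that of Th1, 2.02 times that of Th2 and 1.29 times that of Th17. In log2(FPKM + 1) *Cxcr4* differed from naive cells by -1.28 in Th1, -0.99 in Th2 and -0.37 in Th17 (SE 0.10, limma adjusted p = 4.386e-05, 0.0001298 and 0.01683). The fall in Th17 was -0.27 without naive replicate 1 (adjusted p = 0.08292) and -0.30 without Th17 replicate 1 (adjusted p = 0.08639), and so lost its call. *Cxcr4* was higher in Th17 than in Th2 by 0.63 and lower in Th1 than in Th17, with a difference of -0.91 (limma adjusted p = 0.00365 and 0.001003). Th1 and Th2 differed by -0.28 (95% confidence interval -0.53 to -0.04, limma adjusted p = 0.06215), a difference that passed in 4 alternatives, among them median scaling (-0.38, adjusted p = 0.02167) and the replicate block (adjusted p = 0.0485). *Cd8b1*, a CD8 T cell gene, was also highest in naive cells, at 90.5 and 52.8 FPKM beside 8.77 to 12.9 in the effector libraries, with *Cd8a* at 2.94 and 1.77 FPKM beside at most 0.268, and the part of such cells in the *Cxcr4* level was not tested.

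*Ccr7*, the lymph node homing receptor of naive T cells, was the gene most like *Cxcr4* over the 8 libraries, with 318 FPKM in naive, 38.8 in Th1, 71.6 in Th2 and 155 in Th17 as group means and a Pearson's r of 0.989 on the log2 scale. *Pdlim1* (r = 0.989) and *Iscu* (r = 0.985) came next. For *Cxcr1* the leading genes were *Gnaq*, *Tmem176a* and *Mt3* (r = 0.996, 0.995 and 0.995), and for *Cxcr2* they were *Chst11*, *Me1* and *Gnaq* (r = 0.997, 0.996 and 0.994). *Gnaq*, which encodes a G protein subunit that activates phospholipase C, was 0.911 FPKM in naive, 5.17 in Th2, 4.79 in Th17 and 15.6 in Th1. For *Cxcr6* they were *Tax1bp1*, *Rufy4* and *Fbln1* (r = 0.993, 0.989 and 0.988), so that a neighbour of *Cxcr1* and *Cxcr2* was among the 3 genes most like *Cxcr6*, which lies on chromosome 9. For *Cxcr3* they were *Dis3*, *Sfmbt1* and *Psme3* (r = 0.995, 0.984 and 0.984), genes of small range, as *Dis3* was 7.94, 9.77, 6.31 and 10.4 FPKM in naive, Th1, Th2 and Th17. For *Cxcr5* they were *B3gnt5*, *Snx27* and *Tnfsf8* (r = 0.975, 0.968 and 0.959). Between the receptors themselves, r was 0.987 for *Cxcr1* with *Cxcr2*, 0.976 for *Cxcr1* with *Cxcr6* and 0.983 for *Cxcr2* with *Cxcr6*. These values describe 8 libraries that fall into 4 groups, and genes that share the order of the 4 group means have a high r for that reason.

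*Cxcr5*, the receptor gene for the follicular chemokine CXCL13 on B cells and follicular helper T cells, was low in all groups and highest in Th17. It was 0.941 and 1.26 FPKM in naive, 0.701 and 0.482 in Th1, 2.56 and 1.87 in Th17, and 0.679 and 0.730 in Th2. Both Th17 libraries lay above all others, and Th1 and Th2 overlapped. The means were 1.10 ± 0.223 FPKM in naive, 0.592 ± 0.155 in Th1, 2.22 ± 0.485 in Th17 and 0.704 ± 0.0361 in Th2 (SD, n = 2), from 34 to 199 implied fragments per library. In log2(FPKM + 1), Th17 exceeded Th2 by 0.91, and Th1 differed from Th17 by -1.01 (SE 0.15, limma adjusted p = 0.003873 and 0.003471). Over all libraries, *Cxcr5* reached a mean of 1 FPKM only with its Th17 values, so its tests of Th17 are not independent of that filter. Against naive cells *Cxcr5* rose by 0.61 in Th17 (limma adjusted p = 0.009751), but with quantile normalization the difference was -0.18 (adjusted p = 0.3295). The differences of Th1 and Th2 from naive were -0.40 and -0.30 (limma adjusted p = 0.05201 and 0.1201). The former passed the threshold in 9 of 18 alternatives, without naive replicate 1 for example (-0.51, adjusted p = 0.04468), and without either Th17 library (adjusted p = 0.02944 and 0.03054), and the latter with quantile normalization alone (-0.85, adjusted p = 0.00225). Th1 and Th2 differed by -0.10 (95% confidence interval -0.46 to 0.26, limma adjusted p = 0.6214).

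Of the 2615 exon bases of *Cxcr5* (mm10 chr9:44511787-44526421, - strand), 110 overlap exons of *Bcl9l* on the opposite strand. *Bcl9l* was 18.7 and 26.2 FPKM in naive and 2.18 to 5.07 in the effector libraries, and its part in the naive level of *Cxcr5* was not tested. The summed FPKM of 6 B cell genes was also highest where *Cxcr5* was highest. It was 12.4 and 13.4 in Th17, 6.89 and 8.83 in naive, 2.35 and 3.23 in Th1, and 7.13 and 9.78 in Th2, and none of the 6 was at 0 in any library. *Ms4a1* went the other way, with 0.301 and 0.380 FPKM in Th17 beside 0.442 and 0.806 in Th2, and *Cd79a* did not pass the test between Th17 and naive cells (limma adjusted p = 0.7981). Their part in the level of *Cxcr5* was not tested. Of the 5 follicular helper genes, *Il21* and *Pdcd1* were likewise highest in Th17. *Il21* was at 42.3 and 41.1 FPKM there beside 18.9 and 22.4 in Th2, 5.59 and 7.36 in Th1, and at most 0.0761 in naive. *Pdcd1* was at 16.9 and 17.8 FPKM in Th17 beside at most 14.1 elsewhere. *Icos* was highest in Th2, at 376 and 307 FPKM beside 245 and 213 in Th17. *Sh2d1a* was lowest in Th17, at 39.5 and 38.4 FPKM beside 48.4 to 105 elsewhere. *Bcl6*, which encodes the transcription factor that defines these cells, was instead highest on average in naive cells, at 4.02 and 6.05 FPKM beside 2.64 and 4.44 in Th17.

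*Cx3cr1*, the fractalkine receptor gene, was under 0.4 FPKM in every library. It was 0.387 and 0.306 FPKM in Th17, 0.0922 and 0.116 in Th1, 0.0124 and 0.0871 in naive, and 0.00928 and 0.0188 in Th2, from 44 and 26 implied fragments in Th17 and 1 to 12 elsewhere. Both Th17 libraries lay above all others. Tested with no filter on low values, Th17 exceeded naive and Th2 by 0.36 and 0.41 in log2(FPKM + 1), and Th1 differed from Th17 by -0.29 (limma adjusted p = 0.001003, 0.001817 and 0.00771). Macrophage and monocyte genes, which could accompany *Cx3cr1*, had their highest summed FPKM in Th2 (20.8 and 27.8, beside 17.0 and 17.2 in Th17, 7.95 and 8.75 in Th1, and 12.6 and 13.1 in naive), the group where *Cx3cr1* was lowest. The members differed: *Lyz2* and *Emr1* were highest in Th2, *Csf1r* and *Fcgr1* in naive, and *Cd14* (4.41 and 3.75 FPKM, beside 0.557 and 0.539 in Th2) and *Itgam* (1.89 and 2.03 FPKM, beside 1.81 and 1.77 in Th2) in Th17, where *Cx3cr1* was highest, and *Fcgr1* was listed at 0 in the Th2 and Th17 libraries. Their part in the level of *Cx3cr1* was not tested.

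**Figure D4:**
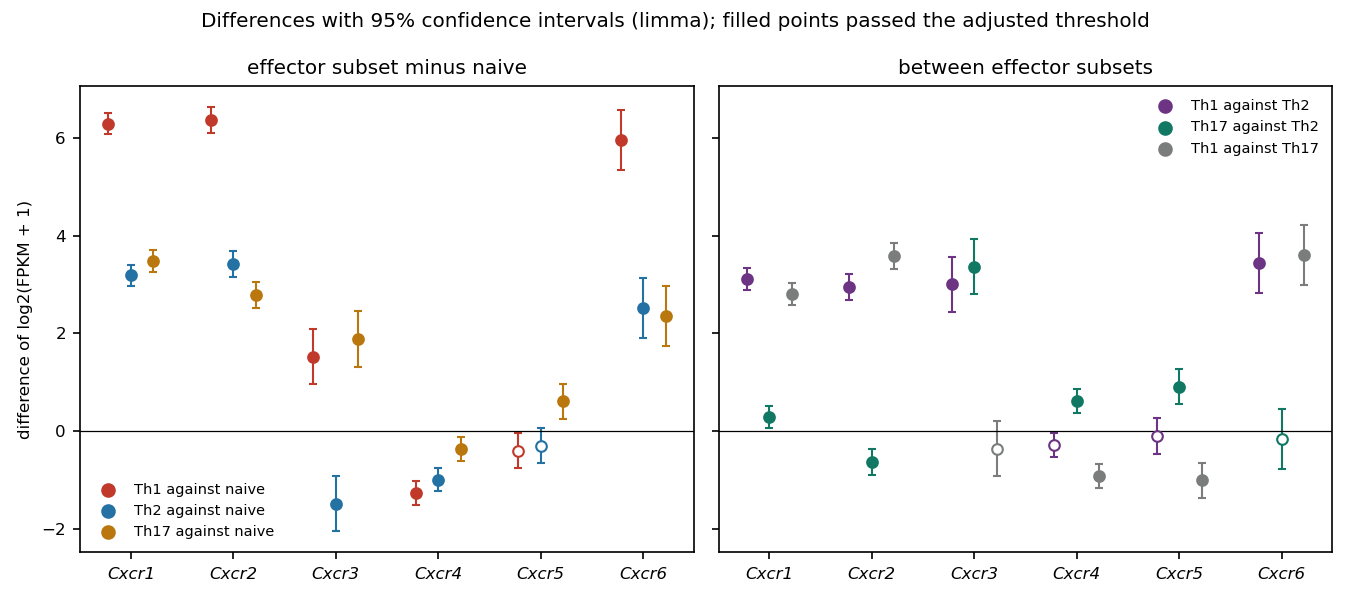
Differences of log2(FPKM + 1) for the 6 receptors tested (horizontal axis), for the effector subsets minus naive at the left and between the effector subsets at the right, the first group named minus the second. Bars are 95% confidence intervals from limma, and filled points passed an adjusted p under 0.05. *Cxcr1*, *Cxcr2* and *Cxcr6* have the largest differences, near 6 for Th1 against naive, and *Cxcr4* lies below 0 in all comparisons with naive. The calls of *Cxcr1* in Th17 against Th2, of *Cxcr4* and *Cxcr5* in Th17 against naive, and the sign of *Cxcr6* in Th17 against Th2 depended on the setting or on 1 library.

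Ligands of these receptors had a lower summed FPKM than the receptors in every library, although *Cxcl3* exceeded its receptor gene *Cxcr2* in Th17. All 15 listed ligand genes were measured, and 3 reached a mean of 1 FPKM. Of these 3, 2 rose in Th1, 2 in Th2 and 3 in Th17 against naive cells, beside 33.8%, 31.8% and 37.5% of all genes tested, and none fell, beside 33.5%, 38.7% and 29.8%. All 3 were at or near 0 in naive cells and reached that mean through effector libraries. None could fall, so these counts say nothing particular of the ligands. The summed FPKM of all 15 was 0.742 and 1.17 in naive, 5.32 and 3.41 in Th1, 31.4 and 27.3 in Th17, and 13.1 and 7.24 in Th2, so that Th17 was highest. *Cxcl3* and *Cxcl2*, which encode CXCR2 ligands, were among the 3 leading ligands of Th17, with *Pf4*. *Cxcl3* was 13.5 and 11.3 FPKM in Th17, 1.09 and 0.803 in Th1, 2.29 and 1.21 in Th2, and listed at 0 in naive. *Cxcl2* was 5.12 and 4.66 FPKM in Th17, 0.407 and 0.233 in Th1, 0.317 and 0.0944 in Th2, and listed at 0 in naive. Against Th2, Th17 was higher by 2.31 for *Cxcl3* and 2.29 for *Cxcl2* in log2(FPKM + 1), and the differences of Th1 from Th17 were -2.78 and -2.16 (limma adjusted p at most 0.0002635). Both genes reached a mean of 1 FPKM only with their Th17 values, so these tests are not independent of that filter. *Cxcr2* was thus highest in Th1, and *Cxcl3* and *Cxcl2* in Th17. Not every other listed ligand gene of CXCR2 was highest in Th17. *Pf4*, a platelet chemokine gene, was 7.69 and 4.32 FPKM in Th2, 5.83 and 4.96 in Th17, 0.170 and 0.356 in Th1, and 0 and 0.114 in naive, and was higher in Th2 and Th17 than in naive cells by 2.69 and 2.60 (limma adjusted p = 4.858e-05 and 6.24e-05). *Cxcl13*, the CXCR5 ligand, was 1.13 and 0.908 FPKM in Th17 and listed at 0 in the other 6 libraries, in the same subset as the highest *Cxcr5*. *Cxcl16*, the CXCR6 ligand, was 1.43 and 1.48 FPKM in Th17 and at most 0.435 elsewhere, and *Cxcl12*, the CXCR4 ligand, was at most 0.0443 FPKM in any library. The 5 atypical receptors, which bind chemokines without signalling through G proteins, all stayed under a mean of 1 FPKM, and the highest, *Ccrl2*, was 1.64 and 1.76 FPKM in Th1.

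**Figure D5:**
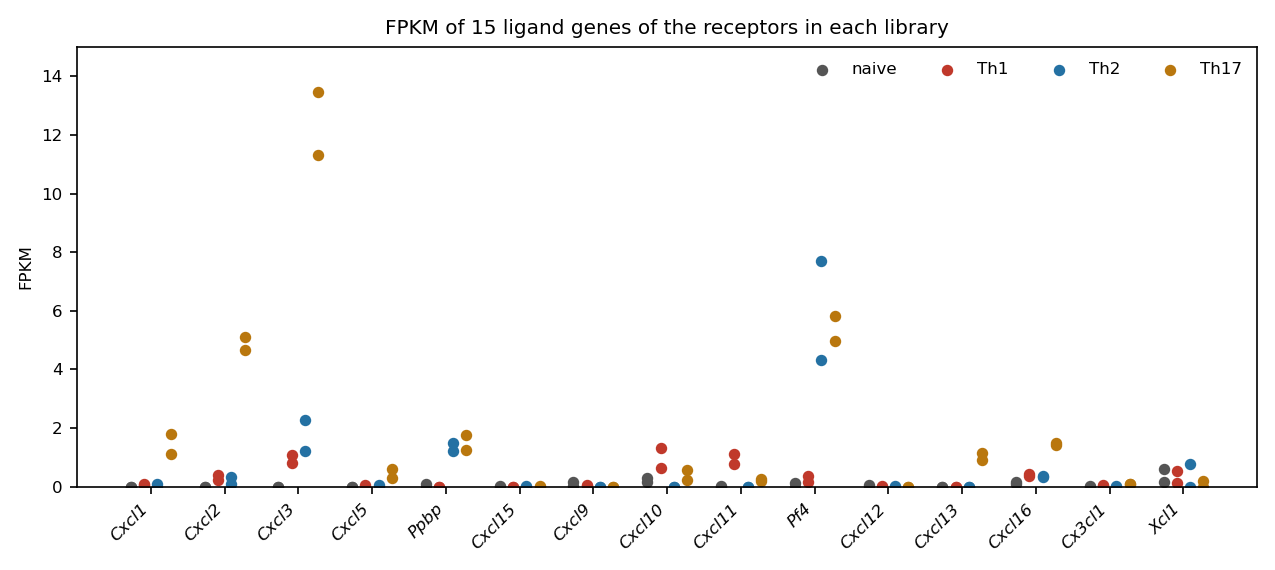
FPKM (linear axis, starting at 0) of the 15 ligand genes in the 8 libraries, with 1 point per library coloured by group. *Cxcl3* (13.5 and 11.3) and *Cxcl2* (5.12 and 4.66) stand out in Th17, *Pf4* in Th2 and Th17, and the other ligands lie near 0 to 2.

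Of 22 genes that carry the receptors' signal, 20 were tested. Against naive cells, 8 rose and 8 fell in Th1, 7 rose and 9 fell in Th2, and 10 rose and 7 fell in Th17. Of all genes tested, 33.8%, 31.8% and 37.5% rose and 33.5%, 38.7% and 29.8% fell. The signalling genes had a median log2 difference of 0.19, -0.04 and 0.37 beside -0.01, -0.11 and 0.08 for all genes. Between subsets, 11 were higher and 4 lower in Th1 than in Th2, 5 higher and 1 lower in Th17 than in Th2, and 4 higher and 1 lower in Th1 than in Th17. The shares of all genes were 27.4% higher and 16.9% lower, 31.7% and 12.0%, and 9.17% and 16.0%. *Pik3r5*, the regulatory subunit of the phosphoinositide 3-kinase that G proteins activate, was 65.1 and 74.1 FPKM in naive, 26.4 and 32.7 in Th1, 9.51 and 11.2 in Th17, and 4.71 and 4.70 in Th2. It fell in Th1, Th2 and Th17 (log2 differences -1.21, -3.63 and -2.64), whereas *Pik3cg*, the catalytic subunit, rose by 0.80, 1.64 and 0.88 (limma adjusted p at most 0.0005743). *Dock2*, the Rac activator needed for lymphocyte migration, fell in the 3 subsets (-1.26, -2.03 and -1.06), as did *Plcb2*, the gene of a phospholipase (-0.89, -1.64 and -1.24, limma adjusted p at most 0.005602). *Gng2*, a G protein subunit, rose by 2.62, 1.97 and 2.05, and *Arrb1*, the β-arrestin 1 gene, rose by 2.24, 2.70 and 2.48 (limma adjusted p at most 3.68e-05).

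Transcription factors with known ties to these receptors in T cells formed the last list, of which 8 of 10 were tested. Of these 8, 4 rose and 4 fell in Th1, 5 rose and 3 fell in Th2, and 4 rose and 3 fell in Th17 against naive cells, where 33.8%, 31.8% and 37.5% of all genes rose and 33.5%, 38.7% and 29.8% fell. *Tbx21* rose by 5.16 in Th1 and *Maf* by 5.09 in Th2 (limma adjusted p = 2.974e-07 and 5.618e-07), and *Gata3* rose by 2.62 in Th2 (limma adjusted p = 4.043e-05). *Tbx21* reached a mean of 1 FPKM only with its Th1 values. Its rise there and its place in the count for Th1 are therefore not independent of that filter. *Klf2*, which maintains the homing receptors of naive T cells, fell in Th1, Th2 and Th17 (-3.99, -4.36 and -4.71), and *Hif1a*, the hypoxia-inducible factor gene, rose by 4.02, 4.28 and 4.04 (limma adjusted p at most 1.933e-05). *Klf2* and *Cxcr4* were both highest in naive cells, and *Hif1a* was lowest there. The part of either factor in the level of *Cxcr4* was not tested.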

How the data were processed

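RNA-seq values of 8 libraries, 2 from each of 4 groups named in the labels, were analysed. Per the labels and the methods, the authors aligned reads to mm10 with Bowtie 0.12.8 and TopHat 1.3.2 and computed FPKM with Cufflinks 2.0.2, and they deposited FPKM with its confidence interval and status per gene. The annotation is not given in the sources used here. The labels name a stranded kit and the methods an unstranded one, so overlapping genes of opposite strands could share reads. Rows of 1 symbol were summed. Depth was estimated from the interval widths, which reflect counting error only.

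The 11198 of 23284 genes whose mean was 1 FPKM or more were tested on log2(FPKM + 1) in 1 limma model of all 8 libraries (limma 3.58.1, R 4.3.3, lmFit, eBayes with trend, two-sided) for 6 comparisons, with Benjamini-Hochberg adjustment over these genes and a threshold of 0.05. The model was tested on simulated data. Python 3.11.15, pandas 2.3.3 and numpy 2.4.6 prepared the tables. The 18 alternatives covered pseudocount, filters, scaling, samples in the fit, variance trend, replicate block, repeated symbols, limma-voom on the implied fragment numbers, and each library left out.

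The members and lists were chosen with earlier results of these data known. Named were the receptors, at most 6 genes of each list by the size of their change or beside a receptor, and the 3 genes most like each tested receptor by Pearson's r. Neighbouring genes, the ratio of *Cxcr1* to *Cxcr2* and the CpG counts lie outside this rule and were added after the values were seen. A member of the transcription factor and marker lists and 1 motif are not reported here. Promoters are from RefSeq (GRCm38.p6), where 7 of the 8 receptors had an entry, and exon overlaps are from GENCODE M21.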

Additional observations from a re-analysis of the deposited data

Results flagged for a closer look

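For each tested receptor, the effect against naive cells differed between effector subsets by the limma test of the subsets themselves, and the largest such difference in log2(FPKM + 1) is given. It was 3.11 for *Cxcr1* between Th1 and Th2, 3.58 for *Cxcr2*, -0.91 for *Cxcr4*, -1.01 for *Cxcr5* and 3.61 for *Cxcr6* between Th1 and Th17, and 3.37 for *Cxcr3* between Th17 and Th2. For *Cxcr5*, the test of Th17 is not independent of the filter on low values, as stated above. *Cx3cr1* and *Xcr1* lay under the filter on low values. *Cx3cr1* still exceeded its naive level in Th17 (0.387 FPKM in replicate 1), as did *Xcr1* in Th1 (0.902 FPKM in replicate 2). In Th2 the mean of *Cx3cr1* was below that of naive cells (0.0141 beside 0.0498 FPKM).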

How the results depend on the processing

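The number of receptors past the threshold stayed within 1.5 times its value in all 6 comparisons and all 18 alternatives. Of 648 differences of tested receptors recomputed, 616 kept their direction and side of the threshold, 15 lost and 15 gained a call, and 2 changed sign: *Cxcr5* in Th17 against naive with quantile normalization (-0.18) and *Cxcr6* in Th17 against Th2 without Th2 replicate 1 (0.27, beside -0.60 without Th2 replicate 2). The cause was not tested. Among the group means recomputed, 124 stayed within the spread between replicates and 4 moved beyond it, all with median scaling. That scaling moved the median of all genes from -0.11 to 0.0016 for Th2 against naive and from 0.18 to 0.025 for Th17 against Th2, where it also moved the genes called higher from 3546 to 2303 and those called lower from 1339 to 2018. Quantile normalization moved the median from -0.01 to -0.13 for Th1 and from 0.08 to -0.12 for Th17 against naive, and to 6.65e-05 for Th17 against Th2.

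The labels number the libraries of each group 1 and 2, but do not say what a number shares. The replicate differences of any 2 groups correlated at 0.138 to 0.294 across genes. With the replicate block, 5, 5 and 6 receptors passed in Th1, Th2 and Th17 against naive and 5 in each comparison between subsets, *Cxcr4* being added in Th1 against Th2 (adjusted p = 0.0485). Depth limits *Xcr1* and *Cx3cr1*, for which most libraries held at most 12 fragments, and 2 libraries per group make every SD a rough estimate.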
